A study of Mus musculus with 3 samples.

Results

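NF-kappaB is a family of transcription factors built from pairs of Rel-domain proteins, and its activity is limited by inhibitor genes that it switches on itself. The genes described here are 10 named subunits and feedback regulators of that system, chosen by symbol: Rela, Relb, Nfkb1 and Nfkb2 (subunits), Nfkbia, Nfkbie and Nfkbiz (IkappaB proteins), and Tnfaip3, Birc3 and Traf1 (regulators of receptor signalling). Of the 10, 9 were among the 18287 listed genes, and Traf1 was not analysed here. No member was removed by a filter applied here. All 9 had at least 155 reads in each library.

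The samples were polyA RNA libraries of purchased mouse aortic endothelial cells (MAECs), which line the aorta, with 1 library for each of 3 conditions. The control cells were labelled only as control, with neither agent named. The glucose oxidase cells received 5 mU/mL of that enzyme, a hydrogen peroxide source, for 30 min. The third group, called the combined library here, was labelled with the same enzyme treatment and 0.2 mM ethyl-2-hydroxybenzylamine (Et2HOBA), a scavenger of reactive lipid dicarbonyls, for 24 h. Where 3 values follow each other, they are those of control, of glucose oxidase alone and of the combined library. The labels give no order for the agents and no animal or passage, and Et2HOBA alone was not analysed here, so Et2HOBA and its library cannot be told apart. By its title the series asks how lipid adducts formed under oxidative stress bear on immune activation of endothelial cells.

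Since each condition is 1 library, replicate spread is unknown and conditions could not be tested against each other. Intervals in the text are exact 95% counting intervals (Clopper-Pearson for a ratio of 2 libraries, Poisson for a level), which compare libraries and cover counting error only. The libraries held between 35005089 and 40212212 reads over the listed genes. For glucose oxidase alone, reads were recovered from the authors' log2 differences. Normalized counts are reads divided by the size factor of their own library, and the factors were derived from the 3 libraries together. Log2 ratios use normalized counts plus 10, and a gene counts as past the limit when its log2 ratio is at least 1 in size. Percentages of control use no added count. In bulk RNA, fewer cells of a type and less RNA per cell cannot be told apart.

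In resting cells the RelA and p50 pair is held in the cytoplasm by IkappaB alpha, the product of Nfkbia. Inflammatory receptors activate the IkappaB kinase complex, which marks IkappaB proteins for destruction and frees the dimers to enter the nucleus. NF-kappaB then transcribes Nfkbia, Nfkbie, Tnfaip3, Birc3, Nfkb1, Nfkb2 and Relb among its own targets, so their transcripts are commonly read as a trace of the pathway's output. In endothelium the same factor drives leukocyte adhesion molecules and chemokines.

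The binding site of NF-kappaB is a short, nearly palindromic sequence, the kappaB site. It is shown for the 4 genes of the set with a match in a promoter window. They include the genes with the lowest and the highest ratios of the set, Nfkbie and Tnfaip3. RefSeq promoter windows (GRCm38.p6, 250 bases before to 50 after a start site) matched 7 of the 10 symbols, Traf1 included. The 10-base kappaB consensus was searched on both strands. At least 1 match lay in the windows of Nfkbia, Nfkbie, Tnfaip3 and Nfkb2, and none in those of Rela, Birc3 and Traf1. Of all 27025 genes with a window, 9.55% had a match. Capitals mark the matched bases, each sequence runs 5′ to 3′ on the gene's own strand, and only bases before the RefSeq start are printed.
Nfkbia, chr12:55492648-55492706, minus strand: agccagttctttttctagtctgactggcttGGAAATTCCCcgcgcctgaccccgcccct
Nfkbie, chr17:45555564-45555633, plus strand: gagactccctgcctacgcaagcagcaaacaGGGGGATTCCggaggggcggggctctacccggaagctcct
Tnfaip3 nearest match, chr10:19015411-19015432, minus strand: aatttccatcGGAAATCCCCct
Tnfaip3 farther match, chr10:19015516-19015545, minus strand: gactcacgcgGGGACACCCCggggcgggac
Nfkb2 first window, chr19:46304688-46304717, plus strand: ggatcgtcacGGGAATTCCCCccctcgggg
In Nfkb2 the capitals join a pair of matches that overlap by all but 1 base. The Nfkb2 windows held 3, 2 and 1 matches, and only this pair is printed. The later windows overlap and share a match. The match in Nfkbia begins 29 bases before the start site and that in Nfkbie 106 bases before it. Those in Tnfaip3 begin 12 and 125 bases before it. By the GENCODE annotation, however, both printed Tnfaip3 stretches lie inside that gene, and the printed Nfkb2 stretch lies in an exon. A match describes letters in a window and is not a measurement of binding.

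The lowest ratio of the set in both comparisons with control was that of Nfkbie. It encodes IkappaB epsilon, a cytoplasmic inhibitor made late in the response, and lies at chr17:45555703-45563169 (ENSMUSG00000023947.8, plus strand). Its reads numbered 671 in control, 294 with glucose oxidase alone and 226 in the combined library. Both treated libraries lay below control, and the intervals of their levels did not reach that of control. The glucose oxidase library held 46.8% of the control level (95% interval 40.7 to 53.8) and the library with Et2HOBA 33.5% (28.7 to 39.0). The log2 ratios were -1.07 and -1.54, and Nfkbie was the only one of the 9 past the limit in either comparison with control. In the authors' deposited tables, whose scale shrinks low counts, its values were -0.79 and -1.35, so on that scale it stayed inside the limit after glucose oxidase alone.

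Nfkbia (ENSMUSG00000021025.8, chr12:55489410-55492647, minus strand), the main cytoplasmic inhibitor, followed the same order at a higher level. The libraries held 6622, 4712 and 4049 of its reads. Control was highest and the library given both agents lowest, with no overlap of counting intervals. The levels were 76.1% (73.3 to 79.0) and 60.8% (58.4 to 63.2) of control, with log2 ratios of -0.39 and -0.72. Between the treated libraries, Nfkbia stood at 79.9% with Et2HOBA (76.6 to 83.3) and Nfkbie at 71.4% (59.8 to 85.3).

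Nfkbiz (ENSMUSG00000035356.17, chr16:55811375-55838899, minus strand) encodes IkappaB zeta, a nuclear cofactor that works with NF-kappaB on secondary response genes rather than holding it in the cytoplasm. Its 6240, 5677 and 6259 reads were nearly level. The treated libraries held 97.3% (93.8 to 101) and 99.7% (96.2 to 103) of the control level. Counting error alone therefore spans equality in both, and it leaves room for differences of only a few percent with these size factors. The intervals do not cover the choice of scaling. With size factors the log2 ratios of Nfkbiz against control were -0.04 for glucose oxidase alone and -0.0048 for the combined library. When libraries were scaled by total counts instead, they were -0.10 and -0.16.

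**Figure D1:**
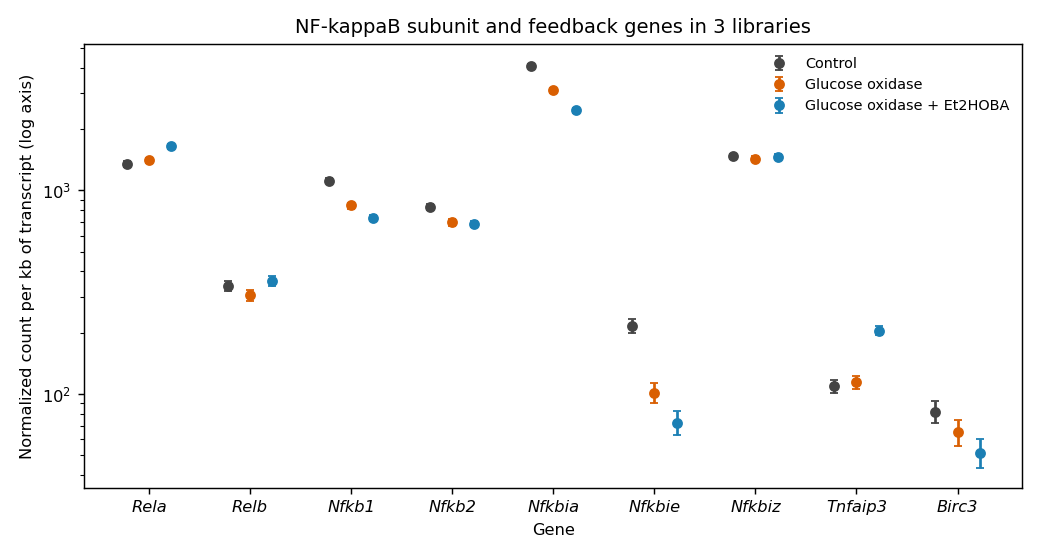
Level of each of the 9 genes (horizontal axis) as normalized count per kb of its longest GENCODE transcript on a log axis, with 1 point per library and exact Poisson 95% intervals. Nfkbia is highest in each library, Nfkbie and Birc3 step down from control to the library given both agents, and Tnfaip3 stands apart there at 205 per kb.

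Among the subunits, Nfkb1 and Nfkb2 lay below control in both treated libraries, and Rela lay above it in the combined library. Nfkb1 (ENSMUSG00000028163.17, chr3:135584655-135691547, minus strand) encodes p105, the precursor of p50. Its reads were 4763, 3376 and 3160. Both treated libraries were below control, at 75.8% (72.5 to 79.2) and 65.9% (63.0 to 69.0). Their log2 ratios were -0.40 and -0.60.

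Nfkb2 (ENSMUSG00000025225.15, chr19:46304320-46312385, plus strand) encodes p100, the precursor of p52 and the key protein of the alternative pathway. With 3292, 2590 and 2733 reads in the same order, it held 84.1% (79.9 to 88.6) and 82.5% (78.4 to 86.8) of control. The treated libraries were alike here, with a ratio between them of 98.1% (92.9 to 104). Of the 50-base stretches in its longest transcript, 18.5% also occur in another annotated gene, and Psd overlaps it on the opposite strand with 629, 656 and 524 reads. Whether counting used strand is not given in the sources used here.

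Rela (ENSMUSG00000024927.8, chr19:5637483-5648130, plus strand) encodes p65, the main activating subunit. It had 3780, 3676 and 4634 reads. After glucose oxidase its level was 104% of control (99.3 to 109), an interval that includes equality. With Et2HOBA it was 122% (117 to 127), above both other libraries.

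Relb (ENSMUSG00000002983.17, chr7:19606217-19629438, minus strand) encodes the partner of p52 in the alternative pathway. Its reads were 1143, 965 and 1222, or 90.3% (82.8 to 98.4) and 106% (97.9 to 115) of the control level. The glucose oxidase library was the lowest of the 3, and the level with Et2HOBA was 118% of it (108 to 128).

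The signalling regulators differed from each other. Tnfaip3 (ENSMUSG00000019850.11, chr10:19000910-19015657, minus strand) encodes A20, a ubiquitin-editing enzyme that shuts off signalling to the IkappaB kinase. It had 698, 684 and 1319 reads. Control and glucose oxidase overlapped, at a ratio of 105% (94.1 to 117), while the library with Et2HOBA stood at 188% of control (171 to 206) and 179% of glucose oxidase alone (163 to 197). Its log2 ratios were 0.07, 0.90 and 0.83 for glucose oxidase against control, both agents against control, and both agents against glucose oxidase. None reached the limit. The authors' deposited tables give 0.06 and 0.84 for the comparisons with control. On the deposited scale the ratio between the treated libraries was 0.45.

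Birc3 (ENSMUSG00000032000.17, chr9:7848699-7873186, minus strand) encodes cIAP2, a ubiquitin ligase of the TNF receptor complex that protects cells from death signalling. It was the least abundant of the 9, with 246, 182 and 155 reads, and its intervals are the widest. The levels were 79.1% (64.9 to 96.2) and 62.6% (50.9 to 76.9) of control. The share of its 50-base stretches found in another gene was 7.66%.

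**Figure D2:**
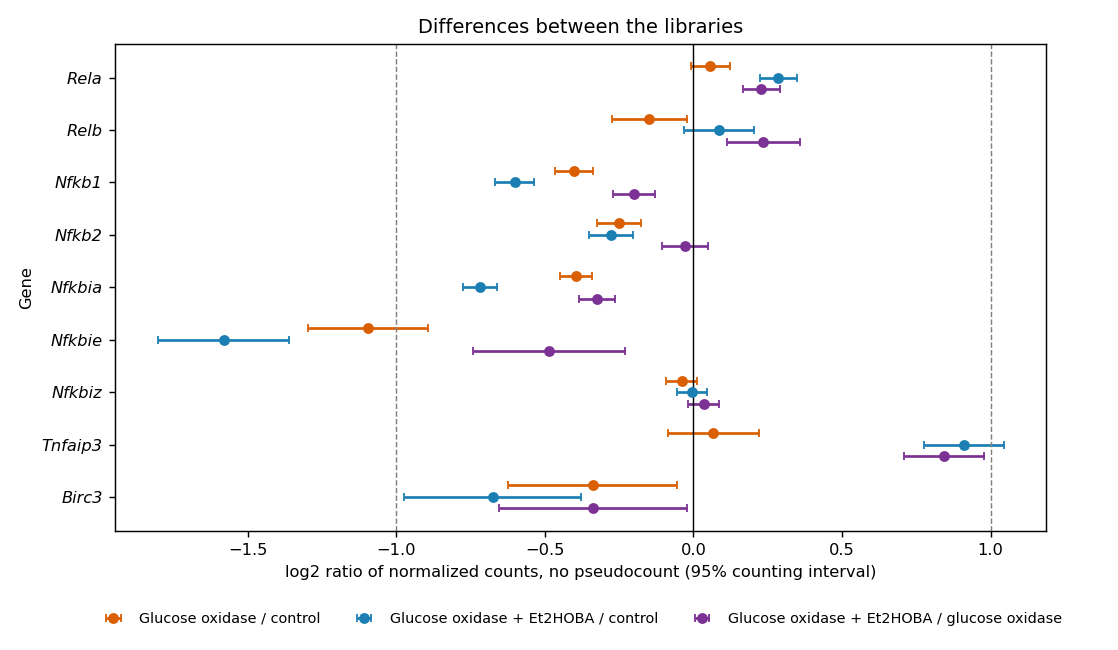
Log2 ratio of normalized counts without an added count (horizontal axis) for the 9 genes in each pair of libraries, with 95% counting intervals and dashed lines at 1 log2 unit either side of 0. Nfkbie alone lies beyond a line, Nfkbiz sits on 0 in each pair, and Tnfaip3 is near 0 after glucose oxidase alone.

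The order of the levels can be read per kb of transcript, since longer transcripts give more reads. In control the normalized count per kb ran from Nfkbia (4066) through Nfkbiz (1469), Rela (1349), Nfkb1 (1112), Nfkb2 (829), Relb (338), Nfkbie (216) and Tnfaip3 (109) to Birc3 (81.9), and no neighbours in that order overlapped in counting error. After glucose oxidase Nfkbiz and Rela overlapped (1429 and 1402 per kb), and so did Tnfaip3 and Nfkbie (114 and 101), which had traded places. With Et2HOBA, Rela at 1643 per kb stood above Nfkbiz at 1464, Nfkb1 and Nfkb2 overlapped (733 and 684), and Tnfaip3 at 205 was well above Nfkbie at 72.4.

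Reads of 1 gene relative to another in the same library need no scaling between libraries. Set against Rela, the transcripts of Nfkbia and Nfkbie were fewer in each treated library. The related inhibitor gene Nfkbib is not in that sum and had 905, 997 and 1298 reads. Nfkbia and Nfkbie together had 193 reads per 100 Rela reads in control (95% interval 185 to 201), 136 for the enzyme alone (130 to 142) and 92.3 in the combined library (88.5 to 96.2). Nfkb1 and Nfkb2 together had 213 (205 to 222), 162 (156 to 169) and 127 (122 to 132). Control was highest in both sums and the library with both agents lowest, without overlap. Among the members set against Rela, Tnfaip3 was the exception. It had 18.5 reads per 100 Rela reads in control (17.0 to 20.02) and 18.6 for the enzyme alone (17.1 to 20.2). The combined library had 28.5 (26.8 to 30.3). Nfkbiz had 165, 154 and 135. In normalized counts Nfkbiz itself was level across libraries, and Rela was higher in the combined one.

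**Figure D3:**
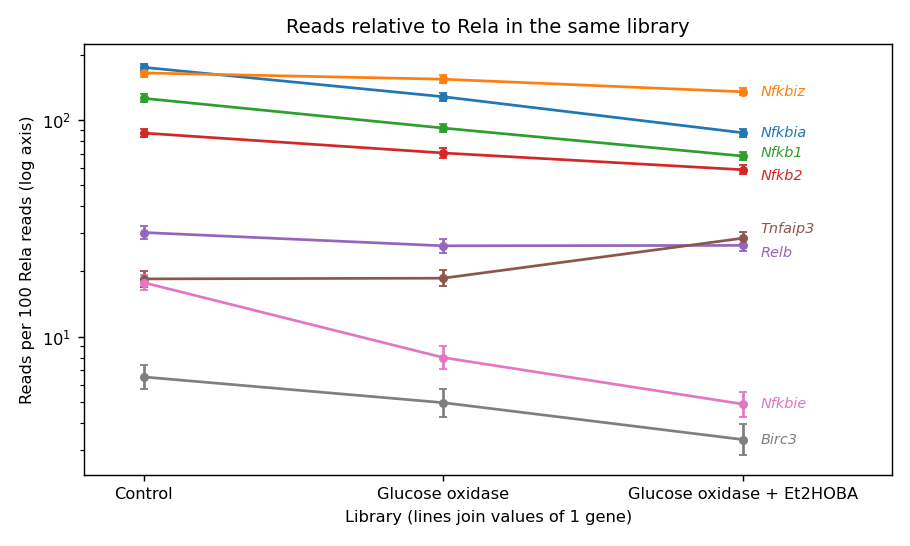
Reads per 100 Rela reads of the same library (log axis) for 8 genes, with exact 95% intervals; lines join the 3 libraries of 1 gene and are not a time course. Nfkbia stands at 175, 128 and 87.4, Nfkbie at 17.8, 7.998 and 4.88, and Tnfaip3 alone is higher in the last library than in the others.

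The same counts were set beside those over all listed genes. After glucose oxidase 1 of 9 genes (11.1%) was past the limit, against 12.7% of all listed genes. With Et2HOBA it was again 1 of 9, against 14.7%, and between the treated libraries 0 of 9, against 8.55%. A single gene past the limit is a share near the background, and nothing is read from it about the set. At a limit of 0.5 log2 units the counts were 1, 5 and 1 of 9, against 33.8%, 40.1% and 25.5% of all listed genes. The 5 with Et2HOBA were Nfkbie, Nfkbia, Birc3 and Nfkb1 below control and Tnfaip3 above it. Counting intervals excluded equal levels for 6, 7 and 7 of the 9, but also for 60.3%, 64% and 54.7% of all listed genes. At this depth most genes pass that criterion between 2 libraries.

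The median log2 ratio of the 9 was -0.25 after glucose oxidase and -0.28 with Et2HOBA, beside -0.01 and -0.00015 over all listed genes. The lower and upper quartiles of all listed genes were -0.38 and 0.27 after glucose oxidase, and -0.41 and 0.38 with Et2HOBA. Both medians of the 9 lie between these quartiles. Both comparisons use the same control library. Between the treated libraries the median was -0.03, and all listed genes had a median of 0. Nfkbie lay low in the distribution, with 7.75% of listed genes at a lower ratio after glucose oxidase and 3.63% with Et2HOBA. Nfkbia had 24.3% and 13.6% of listed genes below it. Tnfaip3 had 57.5% below it after glucose oxidase, and with Et2HOBA 91.99% against control and 92.2% against glucose oxidase alone.

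**Figure D4:**
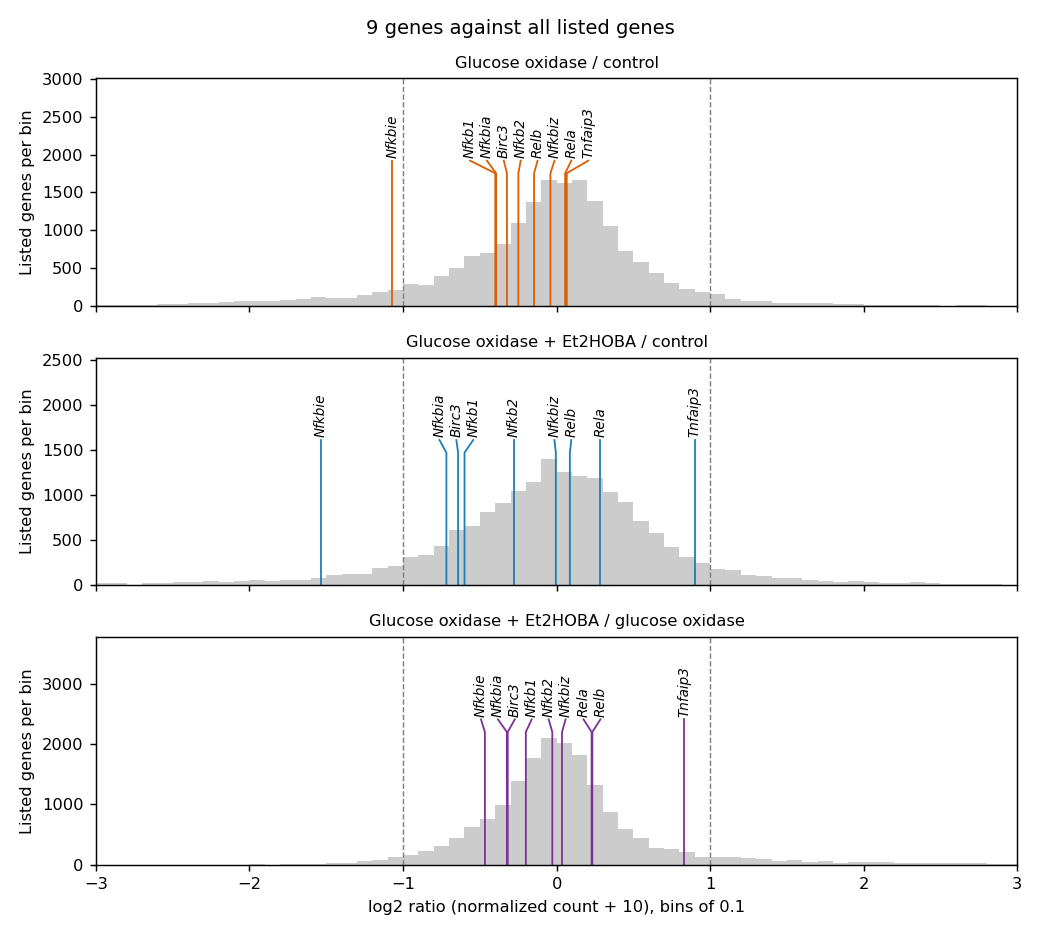
Number of listed genes per bin of log2 ratio (normalized count plus 10) in each pair of libraries, with the 9 genes marked and dashed lines at the limit; genes beyond 3 log2 units fall outside the axis. Most of the 9 lie within the body of the distribution, Nfkbie lies in its lower tail against control and Tnfaip3 toward the upper side in both panels with Et2HOBA.

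The rest of the pathway was read from lists that hold none of the 9. Of the 13 other subunits and inhibitors analysed, 0 were past the limit in any comparison. The shares of all listed genes past it were 12.7%, 14.7% and 8.55%. The list had a median log2 ratio of 0.21 with the enzyme alone and 0.39 in the combined library. Against control, 10 and 11 of the 13 lay above 0, beside 48.9% and 49.98% of all listed genes. Examples chosen after their values were seen are Nfkbib, which encodes the related inhibitor IkappaB beta, with 905, 997 and 1298 reads, and Rel, the c-Rel subunit, with 293, 334 and 467. Nfkbib thus stood at 118% (108 to 129) and 143% (131 to 155) of control, on the other side of it from Nfkbia and Nfkbie. Tnip1, a partner of A20, had 3453, 2146 and 1945 reads and the lowest ratio of this list.

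Receptors that feed into NF-kappaB were centred near 0, with median log2 ratios of -0.06 after glucose oxidase and 0.02 with Et2HOBA, and 5 and 6 of 11 above 0. Of the 11, 1 was higher and 3 were lower past the limit after glucose oxidase (4.07% and 8.6% of all listed genes passed in those directions), and 1 was higher and 5 were lower with Et2HOBA (6.66% and 8.04%). Tlr2, a sensor of bacterial lipoproteins, had 2403, 721 and 540 reads, and the combined library held 0.223 times its control level (0.203 to 0.245). Tlr3, a sensor of double-stranded RNA, had 1938, 969 and 508, and Il1r1, the receptor for interleukin-1, had 1106, 456 and 307. For each of these genes control was highest and the library with both agents lowest. Tnfrsf11a, the receptor RANK, had 232, 94 and 60 reads, and Ager, the receptor for glycated proteins, had 243, 179 and 105. The exception was Tnfrsf12a, the receptor of the cytokine TWEAK, with 1072, 2524 and 4283 reads, or 3.97-fold the control level with Et2HOBA (3.71 to 4.25). The main TNF receptor, Tnfrsf1a, was nearly level at 13425, 13127 and 13673 reads. Between the treated libraries 1 of 11 was past the limit, toward lower levels (6.39% of all listed genes were higher and 2.15% lower). With the deposited scaling, 2 rather than 4 of the 11 passed for the enzyme alone.

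Of 22 adaptors and kinases between receptor and IkappaB, 0 were past the limit after glucose oxidase, against 12.7% of all listed genes. The list medians were 0.13 and 0.09. With Et2HOBA 2 were past it (9.09%), both higher, against 14.7% of all listed genes in either direction. These were Tab2, an adaptor of the kinase TAK1, with 3542, 5163 and 7857 reads, and Ikbkg, the regulatory subunit NEMO, with 2278, 4092 and 4757. Scaling by total counts put both just inside the limit, at 0.99 and 0.90. Ikbkg overlaps G6pdx on the opposite strand, which had 5920, 7506 and 6524 reads.

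Inflammatory targets of NF-kappaB split widely. Of 20 analysed, 6 were higher and 2 lower past the limit after glucose oxidase, and 8 were higher and 3 lower with Et2HOBA. Over all listed genes 4.07% were higher and 8.6% lower after glucose oxidase, and 6.66% and 8.04% with Et2HOBA. The list medians were 0.30 and 0.57. Between the treated libraries 5 were higher and 1 lower, against 6.39% and 2.15% of all listed genes. With the deposited scaling 2 of the 20 passed there in all. Il6, the cytokine interleukin-6, had 72, 351 and 1038 reads, and Ptgs2, the prostaglandin enzyme COX-2, had 1356, 3324 and 10705. Cxcl2, a neutrophil chemokine, had 589, 1485 and 4543, and Csf3, the growth factor G-CSF, had 55, 89 and 432. Each was lowest in control and highest with both agents, at 14.3-fold the control level for Il6 (11.3 to 18.5), 7.84-fold for Ptgs2 (7.41 to 8.31), 7.66-fold for Cxcl2 (7.03 to 8.36) and 7.80-fold for Csf3 (5.88 to 10.53). Il1a rested on 1, 7 and 34 reads, so its ratio of 33.8 with Et2HOBA has a counting interval from 5.67 to 1373. Cx3cl1, an endothelial chemokine and adhesion molecule, ran the other way with 6258, 1783 and 1067 reads. Nfkbie and Nfkbia were low in the libraries where Il6, Cxcl2 and Ptgs2 were high. Tnfaip3 was high in the library where these targets were highest. Other targets, chosen after their values were seen, ran the same way as Nfkbie and Nfkbia. Irf1 had 1145, 845 and 452 reads, and Cxcl10 had 44, 31 and 22. Against control 12 and 14 of the 20 lay above 0 and 8 and 6 below it. Over all listed genes 48.9% and 49.98% lay above 0. A link between these genes was not tested.

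Of 10 survival and antioxidant targets, 1 was past the limit after glucose oxidase and 4 were with Et2HOBA, 3 of them higher. Over all listed genes 12.7% and 14.7% were past it, and 6.66% were higher past it with Et2HOBA. Ier3, an early response gene that restrains cell death, had 1709, 3277 and 7361 reads, and its log2 ratio of 1.031 after glucose oxidase became 0.97 with total-count scaling. Gadd45b, a stress sensor, had 367, 498 and 918, and Bcl2l1, which encodes the survival protein BCL-XL, had 11339, 16884 and 24158. With total-count scaling Bcl2l1 was inside the limit in the combined library, at 0.93. Fas, a death receptor, was the lower one at 2045, 1369 and 755 reads. The list medians were 0.24 and 0.66.

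**Figure D5:**
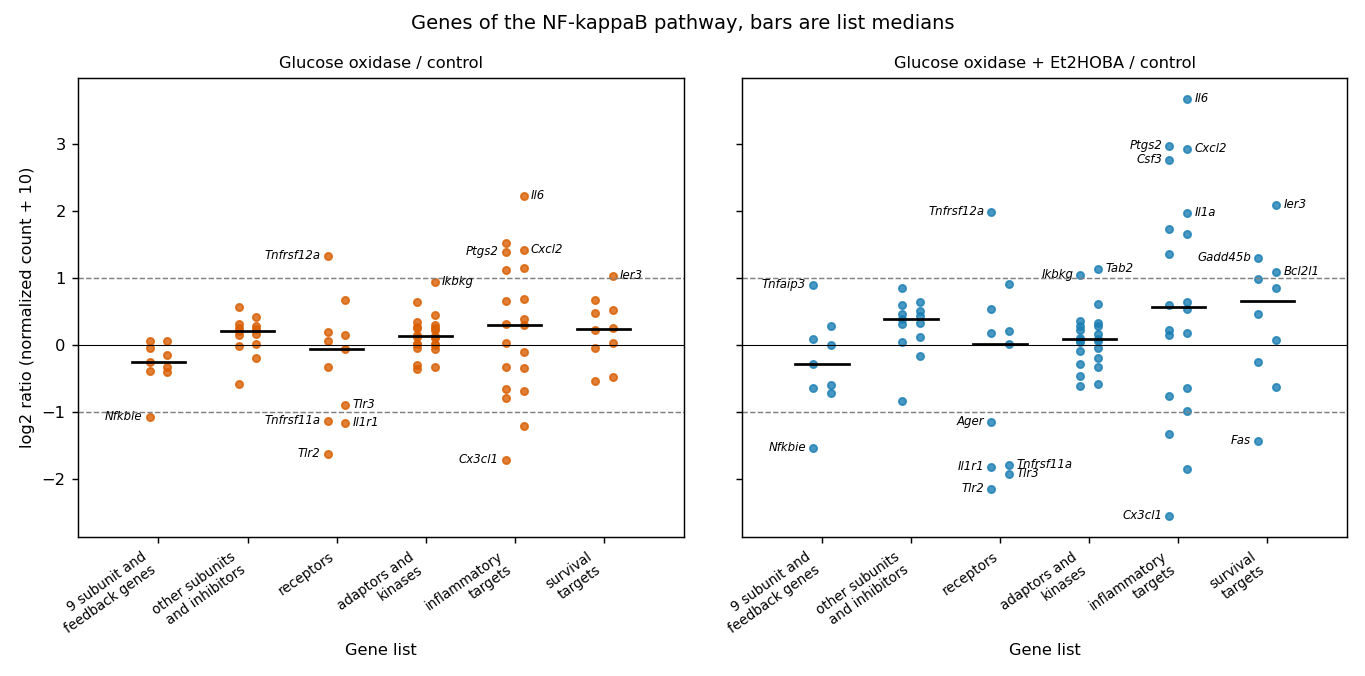
Log2 ratio (normalized count plus 10) of every analysed gene in 6 lists for both comparisons with control; points are genes, bars are list medians and dashed lines mark the limit. The 9 subunit and feedback genes have the lowest medians, -0.25 and -0.28, and inflammatory targets spread from -2.55 to 3.66 with Et2HOBA.

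Listed genes with and without a kappaB match near the start had close medians. The 1395 listed genes with a match had median log2 ratios of 0.06 after glucose oxidase and 0.03 with Et2HOBA, beside 0.04 and -0.0055 over the 10023 with a window and no match. The shares past the limit were 10.8% and 18.9% with a match, and 8.67% and 15.8% without. Of the 4 genes of the set with a match, Nfkbia, Nfkbie and Nfkb2 lay below control in both treated libraries and Tnfaip3 did not.

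By the rule for likeness, the pattern of Nfkbie, the gene of the set with the largest ratio, was compared with 10596 protein-coding genes. The nearest were Lrpap1, a receptor-associated chaperone (8977, 3934 and 3138 reads), Mcm2, a subunit of the replicative helicase (3348, 1535 and 1142), and Zfp36l1, an RNA-binding protein (5982, 2765 and 2097). Their distances over the pair of log2 ratios were 0.03, 0.05 and 0.06. The likeness covers 3 libraries, and both ratios share the control.

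The labelled cell type was checked on fixed markers, and some differed between the same libraries. All 10 endothelial markers were listed, with summed normalized counts of 367058, 237978 and 216316. Against control 3 and 5 of them were lower past the limit, beside 8.6% and 8.04% of all listed genes. The other 7 and 5 were within it. All 10 had log2 ratios below 0 after glucose oxidase, and 9 did with Et2HOBA. Tek was the lowest there, with 6786, 2877 and 1688 reads. Cdh5 went the other way in that library, with 55360, 45034 and 63665 reads. Its level with Et2HOBA was 114% of control (113 to 116). Smooth muscle markers summed to 34.9, 64.2 and 86.7 over 3 of 5 genes, with the highest sum carried by Myh11 (19, 35 and 73 reads), while Acta2 had 8, 18 and 13 and Tagln 9, 9 and 4. Fibroblast markers summed to 131, 1404 and 2738 over 2 of 5, nearly all from Pdgfra (107, 1325 and 2821 reads), while Col1a1 had 28, 30 and 23. Leukocyte markers summed to 8200, 17911 and 27120 over 4 of 9, nearly all from Cd68 (8215, 17067 and 27799 reads), a lysosomal protein that other cells also make, while Csf1r had 6, 12 and 10 reads and Cd14 had 55, 136 and 272. Lyz2 went the other way past the limit, with 186, 76 and 86 reads and log2 ratios of -1.10 and -1.04 against control. Markers not analysed here included Ptprc, Adgre1, C1qa, Cd3e, Dcn, Lum, Dpt, Cnn1 and Myocd. The part of these markers in the values of the 9 genes was not tested.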

How the data were processed

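Tools named in the submitters' processing notes are STAR and featureCounts, with the build mm10 (GRCm38); versions, annotation and filters are not given in the sources used here. The authors deposited raw read counts for control and glucose oxidase plus Et2HOBA, and log2 differences between log-normalized libraries, per the file headers; glucose oxidase against control was deposited as log2 differences without a header. Their transformation is an asinh of a scaled square-rooted count, as read from the values. Solving it for glucose oxidase returned whole reads (tolerance 0.01) at 100% of the 18275 symbol-matched genes, and at 3.31% when control counts were raised by 1 read. For 12 more genes whole reads decided the match. The deposited scale acts like an added count of 202 reads for glucose oxidase against control, 71.1 for both agents against control and 1236 between the treated libraries, so the tables are not on 1 scale.

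Size factors from the median of ratios over the 3 libraries were applied to the counts (1.032, 0.965 and 1.04 in the order control, glucose oxidase, glucose oxidase plus Et2HOBA) with Python 3.11.15, scipy 1.17.1 and pandas 2.3.3, and 10 was added before log2. No count model was fitted, since 1 library per group gives no spread. Depth, at 35005089 to 40212212 reads, makes counting error small except for genes with few reads such as Birc3. The script was tested on simulated data. Transcript lengths, overlaps and shared 50-base stretches come from GENCODE M21, where 17878 gene IDs had the same version and position. Alternatives were a pseudocount of 1, total-count scaling, the deposited scale, a limit of 0.5, a mean normalized count of 10 or more, and protein-coding genes only.

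Named genes are the members, up to 6 genes per pathway list with an absolute log2 ratio of 1 or more against control, and the 3 protein-coding genes, with a mean normalized count of 100 or more, nearest to the member with the largest ratio; others are said to be chosen after their values were seen, as were Tnfrsf1a and the markers named singly. The members and lists were chosen with earlier results of these data known.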

Additional observations from a re-analysis of the deposited data

How the results depend on the processing

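Each group has 1 library, so no library could be left out. No paired analysis was possible because each group has 1 library. Of 27 log2 ratios (9 genes in 3 comparisons), a pseudocount of 1 changed no sign and no side of the limit. Total-count scaling shifted the median of all genes by -0.06 (glucose oxidase against control), -0.13 (with Et2HOBA against control) and -0.08 (between the treated libraries). It turned 3 small ratios: Rela after glucose oxidase, Relb with Et2HOBA against control and Nfkbiz between the treated libraries. It moved the median of the 9 with Et2HOBA from -0.28 to -0.43 against control and from -0.03 to -0.12 against glucose oxidase. On the deposited scale 0 of the 9 passed the limit after glucose oxidase, against 1 on the common scale. The ratio that moved most on that scale was Tnfaip3 between the treated libraries, from 0.83 to 0.45. At a limit of 0.5 there were 5 with Et2HOBA against control and 1 between the treated libraries. Counts over all genes depended more on the setting. Glucose oxidase against control gave 2317 on the common scale, 4243 with a pseudocount of 1, 734 on the deposited scale, 6175 at a limit of 0.5 and 1235 over protein-coding genes. With Et2HOBA against control these were 2688, 4494, 1768 and 7332, and protein-coding genes gave 2210. Between the treated libraries they were 1563, 3311, 43, 4670 and 441. The cause was not tested.
 Alternatives for the pathway lists and named genes were chosen after seeing the data.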

Other observations

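An adaptor and a kinase, chosen after their values were seen, were lower in the combined library than in either other one. Myd88, which couples Toll-like and interleukin-1 receptors to their kinases, had 1213, 1130 and 809 reads, in the order control, enzyme alone and combined library. Irak4, the kinase it recruits, had 995, 1150 and 796. Myd88 was at 99.6% of control after glucose oxidase (95% counting interval 91.8 to 108) and at 66.3% with Et2HOBA (60.6 to 72.5). Neither passed 1 log2 unit in any comparison.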
